A study of Mus musculus with 24 samples.

Results

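The regions described here are the constant protein-protected sites of differentiating MEL cells, meaning stretches of RNA in which both replicates found a site before DMSO treatment and again after 2 and 4 days of it. A protein-protected site (PPS) is a stretch of RNA that an RNase left intact when proteins were present. PPSs of 20 to 40 nt, the size of a ribosome footprint, were set aside, and a PPS was kept when calls of both replicates of its day had been joined into it. The 115789 kept PPSs of the 3 days were merged into 81442 regions, an overlap of 1 nt on a shared strand being enough to join them. Of these, 6529 held a kept PPS of every day (8.02% of the merged regions). The regions were thus chosen by their PPS calls on all 3 days, and constancy is the criterion and not a result. Replicate support and the minimum number of calls belong to that choice, and values that rest on them are descriptions.

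MEL is a mouse leukemia line of red cell precursors that DMSO sets on the path to hemoglobin-making cells. Cells without DMSO (day 0) and cells after 2 and 4 days in DMSO were compared, all cross-linked with formaldehyde and with no genetic change between groups. At each time point, 8 libraries were made: 2 replicates by 2 nucleases, each with proteins kept during digestion (footprinting) or removed before it (structure only). The nucleases were RNaseONE, which cuts single-stranded RNA (ssRNase), and RNase V1, which cuts base-paired RNA (dsRNase). The PPSs of a day were deposited as 1 list, pooled over its 8 libraries, so that the depth of a library is not given in it, and shares and scores of PPSs have no replicate values to test.

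RNA-binding proteins cover a transcript from its synthesis to its decay, and most contacts are brief or partial. Small nucleolar RNAs (snoRNAs) differ in that each is held in a stable particle. C/D snoRNAs carry a C box and a D box that bring in fibrillarin and guide the methylation of ribosomal RNA, and H/ACA snoRNAs carry a hairpin pair that brings in dyskerin and guides pseudouridylation. Most of them are cut from the introns of host genes. Small Cajal body RNAs (scaRNAs) are built alike and act on spliceosomal RNAs.

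C/D snoRNAs are shown first, because genes of snoRNAs held constant regions more often than other RNA types. The 3 shown here ranked highest on their weakest day among Snord regions with a unique stretch of 50 to 150 nt that held both boxes. Each is the longest unbroken stretch lying in PPSs of all 3 days (GRCm38, written 5′ to 3′ on the strand of the region). Capitals mark every TGATGA, the core of the C box, and every CTGA, the letters of the D box.
Snord100, in an intron of the ribosomal protein gene Rps12, chr10:23785733-23785832, minus strand: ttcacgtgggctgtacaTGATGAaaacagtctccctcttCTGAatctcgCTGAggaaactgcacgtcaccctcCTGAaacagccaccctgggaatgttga
Snord110, chr2:130275505-130275581, plus strand: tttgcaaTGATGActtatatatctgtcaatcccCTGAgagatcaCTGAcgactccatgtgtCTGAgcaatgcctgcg
Snord89, chr1:39548742-39548850, minus strand: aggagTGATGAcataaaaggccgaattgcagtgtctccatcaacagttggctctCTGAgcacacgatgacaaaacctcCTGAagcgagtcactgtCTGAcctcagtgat
The stretch on Snord100 was 100 nt of a 177-nt region. That region was found in all 12 call sets and scored 47.74 at day 0, 66.02 at day 2 and 42.36 after 4 days. Snord110 had scores of 40.2, 46.58 and 48.57 in the same order, and Snord89 had 41.85, 49.86 and 39.73. The score is the authors' enrichment of footprinting over structure-only reads, and it is summed where calls were joined, so that a PPS joined from more or longer calls can score higher. A region's score on a day is that of its highest-scoring PPS. The regions of all 3 stretches held calls of both nucleases on every day. Where each call lay within a joined PPS is not given in the lists. TGATGA followed within 25 to 95 nt by CTGA was searched on the region's own strand, in regions of 100 to 300 nt. The pattern was held by 21 of 35 constant regions on Snord genes (Wilson 95% interval 43.6% to 74.4%) and by 0 of 21 on Snora genes. It was held by 109 of the 4537 other constant regions of that length and by 394 of 21441 regions seen on 1 or 2 days (1.84%). A match in these letters is a description and not evidence of a box in use.

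The H/ACA snoRNAs are shown with the telomerase RNA, which belongs to the same family of particles. For the 2 snoRNAs the annotated gene is shown, with capitals marking the longest unbroken stretch that lay in PPSs of all 3 days. For Terc, the RNA that gives telomerase its template, the whole stretch shared by all days is shown, and capitals mark CTAACC, the complement of the telomere repeat.
Snora23, chr7:110046364-110046547, plus strand: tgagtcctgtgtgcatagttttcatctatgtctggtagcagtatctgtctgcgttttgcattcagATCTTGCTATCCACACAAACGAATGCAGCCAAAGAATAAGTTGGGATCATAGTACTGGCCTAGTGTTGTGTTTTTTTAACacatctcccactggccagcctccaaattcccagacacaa
Snora33, in an intron of Rps12, chr10:23785347-23785475, minus strand: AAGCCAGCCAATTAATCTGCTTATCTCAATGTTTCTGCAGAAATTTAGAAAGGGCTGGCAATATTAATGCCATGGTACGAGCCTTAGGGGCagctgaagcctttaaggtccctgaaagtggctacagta
Terc, chr3:96414572-96414837, minus strand: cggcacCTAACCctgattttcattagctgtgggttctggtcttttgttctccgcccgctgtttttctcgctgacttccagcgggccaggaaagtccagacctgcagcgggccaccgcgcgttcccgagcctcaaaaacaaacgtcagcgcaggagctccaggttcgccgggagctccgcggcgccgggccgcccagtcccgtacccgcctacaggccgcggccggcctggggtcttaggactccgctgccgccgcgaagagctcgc
Snora23 had scores of 107.57, 75.43 and 64.94 at day 0, day 2 and day 4. Snora33, which shares its host gene with Snord100, had scores of 71.95, 57.3 and 51.74. Both were lower at day 4 than at day 0. Terc went the other way, with scores of 58.36, 75.44 and 81.51, and 266 nt of its 288-nt region lay in PPSs of all 3 days. The letters CTAACC, searched on the region's own strand, occurred in 2.80% of 1502 constant regions of 200 to 400 nt and in 2.03% of 1727 regions of that length from 1 or 2 days. All 3 regions were found in all 12 call sets and so held calls of both nucleases on every day.

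Outside small RNAs, the regions shown are grouped by the nuclease, or both, that revealed them on all 3 days. Of all constant regions, 37.9% kept the same nuclease class on all 3 days. The sequences here come from introns and from coding sequences (CDSs). Each ranks among the highest on its weakest day for its kind, among unique stretches of 50 to 150 nt outside UTRs. The nuclease named for each is that of the calls in its whole region. No letters are capitalised in them.
U2af2 intron, ssRNase only on all 3 days, chr7:5063216-5063332, plus strand: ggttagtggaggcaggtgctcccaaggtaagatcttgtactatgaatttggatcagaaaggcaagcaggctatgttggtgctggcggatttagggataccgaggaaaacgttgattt
Iars intron, both nucleases on all 3 days, chr13:49705697-49705783, plus strand: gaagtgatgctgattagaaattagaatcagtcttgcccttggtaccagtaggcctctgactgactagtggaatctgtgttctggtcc
Kmt2d CDS, both nucleases on all 3 days, chr15:98850391-98850510, minus strand: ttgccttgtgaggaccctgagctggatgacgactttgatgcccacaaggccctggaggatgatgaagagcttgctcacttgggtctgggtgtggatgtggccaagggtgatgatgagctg
Ripk3 CDS, ssRNase only on all 3 days, chr14:55788013-55788096, minus strand: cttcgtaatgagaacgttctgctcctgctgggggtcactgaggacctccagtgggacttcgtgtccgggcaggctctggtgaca
Ppp4r3b CDS, dsRNase only on all 3 days, chr11:29211159-29211255, plus strand: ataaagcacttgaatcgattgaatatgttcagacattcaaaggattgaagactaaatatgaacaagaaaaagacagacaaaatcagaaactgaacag
Sf3b6 CDS, dsRNase only on all 3 days, chr12:4820605-4820694, plus strand: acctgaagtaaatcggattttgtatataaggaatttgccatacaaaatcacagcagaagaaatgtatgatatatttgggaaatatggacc
U2af2 encodes the splicing factor that reads the polypyrimidine tract, Iars the cytosolic isoleucyl-tRNA synthetase, Kmt2d a histone H3 lysine 4 methyltransferase, Ripk3 a kinase of necroptosis, Ppp4r3b a regulatory subunit of protein phosphatase 4 and Sf3b6 a subunit of the spliceosomal SF3b complex. The stretches seen with dsRNase only were poor in G and C, at 30.9% in Ppp4r3b and 32.2% in Sf3b6. The ssRNase-only stretch of Ripk3 held 59.5% and the stretch of Kmt2d 55.8%. The intronic stretches held less, at 47.0% in U2af2 and 46.0% in Iars. A further ssRNase-only stretch, in an intron of Pfkp, was picked by the same ranking but is not shown, and it held 33.9%. The nuclease classes are thus not set apart by these few stretches. Scores at day 0, day 2 and day 4 were 26.18, 33.06 and 40.66 for Ppp4r3b, and 27.67, 28.9 and 29.22 for Ripk3.

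The constant regions had a median length of 147 nt (interquartile range 110 to 210, extremes 42 and 4999) and covered 1190974 nt in all. Merging over days lengthens a region, and regions of 2 days had a median of 106 nt and those of 1 day 73 nt. The part of a constant region that lay in PPSs of all 3 days had a median of 67 nt, or 50.8% of the region. In 325 regions the PPSs were chained and no position was covered on every day. Exactly 1 PPS per day was present in 5220 regions. Single PPSs were also longer inside constant regions than outside, with medians of 104 against 80 nt at day 0, 90 against 71 nt at day 2 and 103 against 78 nt at day 4. For PPSs of day 0, the share of PPSs that lay in a constant region was 9.71% for PPSs of 41 to 60 nt and 59.7% for those above 200 nt, so that length moved with membership.

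**Figure D1:**
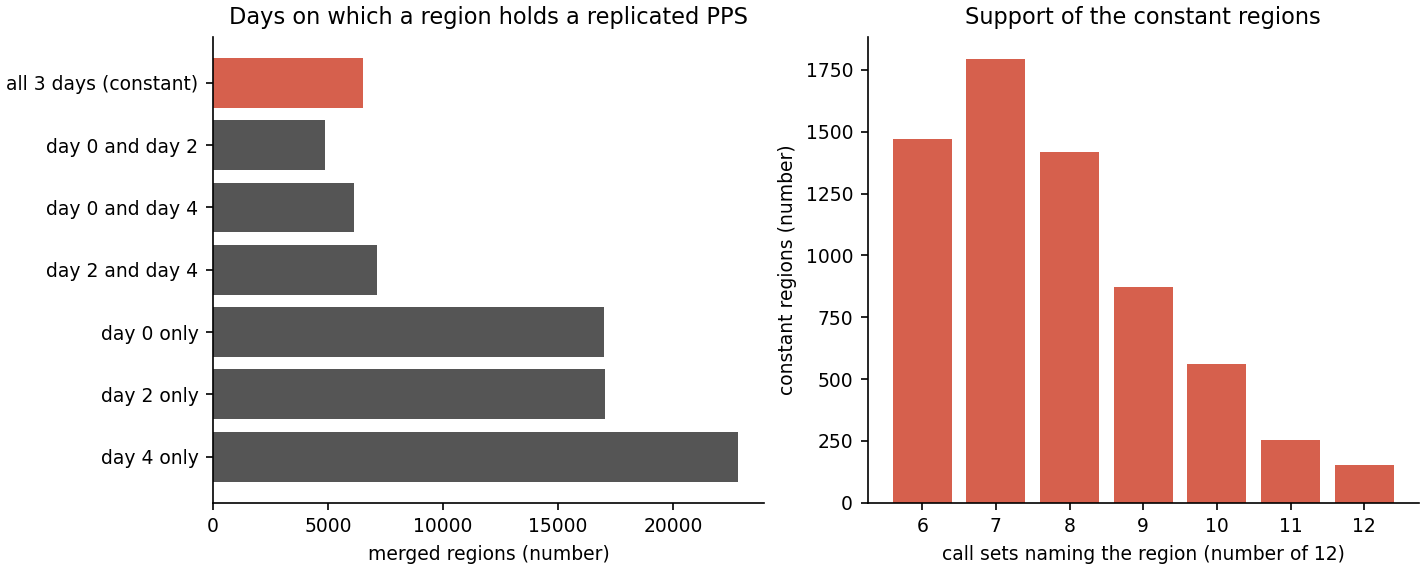
Merged regions by the days on which they held a replicated PPS (left, number of regions) and constant regions by the number of call sets, of 12, that named them (right). The 6529 constant regions were more than those of day 0 with day 2 (4851) and of day 0 with day 4 (6119), and fewer than those of day 2 with day 4 (7113) and of each single day, and most constant regions rested on 6 to 8 call sets.

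The edge of the criterion was soft on both sides. Joining PPSs only from 5 nt of overlap left 6506 constant regions, and also joining those up to 4 nt apart gave 6566. Just above the length limit, 291 of 3921 replicated PPSs of 41 to 45 nt lay in a constant region, and just below it 40 of 2644 replicated PPSs of 36 to 40 nt overlapped a constant region. Of the 18083 regions replicated on 2 days, 10403 (57.5%) held a PPS of a single replicate on the remaining day, so that many were short of the criterion by 1 call. The ends of a site varied between days to a similar extent as elsewhere. Among the 5220 regions with 1 PPS per day, the overlap of a pair of days was a median 68.0% to 70.3% of their joint length, and 10.3% to 11.5% had both ends within 5 nt. In regions seen on just the same 2 days the overlap was 67.2% to 68.8%.

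Each day has 4 call sets (2 nucleases by 2 replicates), so that a constant region must rest on at least 6 of 12. The lowest number, 6, was met by 1472 regions, 7 by 1794 and 8 by 1419. All 12 call sets named 153 regions (2.34%). ssRNase carried most of them: a call of ssRNase replicate 1 was present in 88.7% of constant regions at day 0, 85.3% at day 2 and 82.2% at day 4, and one of replicate 2 in 85.9%, 89.4% and 83.8%. A call of dsRNase replicate 1 was present in 37.2%, 44.4% and 56.99%, and one of dsRNase replicate 2 in 44.2%, 32.8% and 48.1%. The replicates of either nuclease thus ordered the days differently. The calls in the whole lists numbered 34589, 41323 and 68632 for dsRNase replicate 1 and 41265, 20927 and 52174 for replicate 2, in the same order of days as these shares, and the part of call number in these shares was not tested.

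To see which kinds of RNA stayed protected, the PPSs inside constant regions were set against the other replicated PPSs of the same day. A PPS was counted in each class that it touched, by GENCODE annotation on its own strand. Exons of noncoding genes made up 7.33% of PPSs inside and 1.95% outside, a difference of 5.38 percentage points (Newcombe 95% interval 5.03 to 5.74), and the difference lay between 5.33 and 5.39 points on each day. The 3′ UTR share was lower, at 15.7% against 19.8%, with a difference of -4.13 points at day 0, -0.795 points at day 2 and -6.85 points at day 4. The day 2 interval included 0. Intervals cover counting error only, since PPSs of a gene are not independent and the lists are not replicates.

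**Figure D2:**
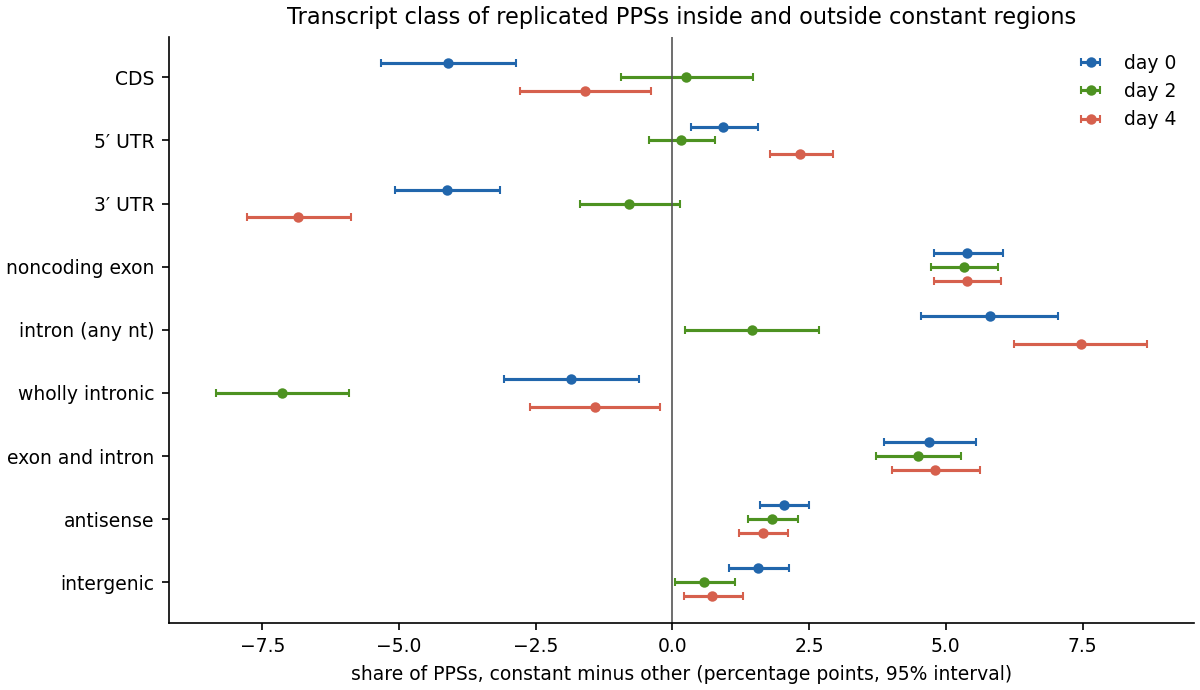
Difference in the share of PPSs that touch each transcript class, constant minus other replicated PPSs (x axis, percentage points), with points and Newcombe 95% intervals for day 0, day 2 and day 4. Noncoding exons and PPSs spanning exon and intron lie above 0 on every day, 3′ UTRs lie below it, and the CDS changes side at day 2.

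Introns behaved in opposite ways depending on how a PPS met them. PPSs that touched an intron were more frequent inside constant regions (62.8% against 57.8%, a difference of 5.07 points, 4.36 to 5.78). PPSs wholly within introns were less frequent (34.3% against 37.6%, a difference of -3.33 points), and the difference was -7.14 points at day 2. The excess lay in PPSs that held both exonic and intronic sequence (12.2% against 7.496%). It also lay in PPSs that touched an intron and an exon of a transcript annotated as retaining an intron (13.6% against 9.19%). With each PPS given to 1 class, exons before introns, the difference for introns turned to -2.60 points. The CDS share, 35.02% against 36.8%, had no stable direction, since it differed by -4.10 points at day 0, 0.257 points at day 2 and -1.60 points at day 4. It turned to 1.07 points without PPSs of 200 nt or more. Among PPSs of one length range, 81 to 100 nt, the difference was 3.63 points for noncoding exons, -4.75 points for 3′ UTRs and 4.36 points for introns, of the same sign as over all lengths. Seen per region with 1 class each, 25.5% of merged regions on noncoding exons were constant, 10.2% of those on 5′ UTRs, 8.29% of those on CDSs, 7.23% of those in introns and 5.04% of those on 3′ UTRs, where all merged regions gave 8.02%.

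The nuclease class of a region often differed from day to day although the region stayed. At day 0, 2785 constant regions had ssRNase calls only, 3361 had calls of both nucleases and 383 had dsRNase calls only. At day 4 the numbers were 2049, 3926 and 554. The same class on all 3 days was kept by 2475 regions (37.9%), of which 1487 were of both nucleases, 849 of ssRNase only and 139 of dsRNase only. A region that was ssRNase only at day 0 was ssRNase only again at day 4 in 45.3% of cases and had calls of both nucleases in 52.4%. It was dsRNase only in 2.30%. Agreement of class between day 0 and day 4 was 57.8% in constant regions (Wilson 95% interval 56.6 to 59.0) and 54.5% in regions of just those days (53.2 to 55.7). PPSs with calls of both nucleases were more frequent inside constant regions than outside (51.3% against 44.3%). Within length ranges, however, the difference was -1.56 points (-3.08 to -0.0256) for PPSs of 61 to 80 nt, 0.00800 points (-1.65 to 1.67) for 81 to 100 nt and 2.68 points (1.25 to 4.10) for those above 100 and up to 150 nt, so that it moved with length.

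Regions of a stable nuclease class lay on different parts of transcripts. Of the 139 regions seen with dsRNase only on all 3 days, 82 touched a 3′ UTR (59.0%, Wilson 95% interval 50.7 to 66.8) and 2 lay wholly in introns (1.44%). Of the 849 seen with ssRNase only, 88 touched a 3′ UTR (10.4%, 8.49 to 12.6) and 382 lay wholly in introns (44.99%, 41.7 to 48.4). None of either group lay on a snoRNA or scaRNA gene, whereas 145 of the 1487 regions of both nucleases did (9.75%). The central 60 nt of dsRNase-only regions had a median G and C content of 40% and a median predicted folding energy of -7.40 kcal/mol. The same window held 48.3% and gave -11.5 kcal/mol in ssRNase-only regions. The predicted fold of the dsRNase-only regions was thus the weaker, and folding energy and base composition move together here. The intervals cover counting error only, and the nuclease class is part of how a call was made.

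**Figure D3:**
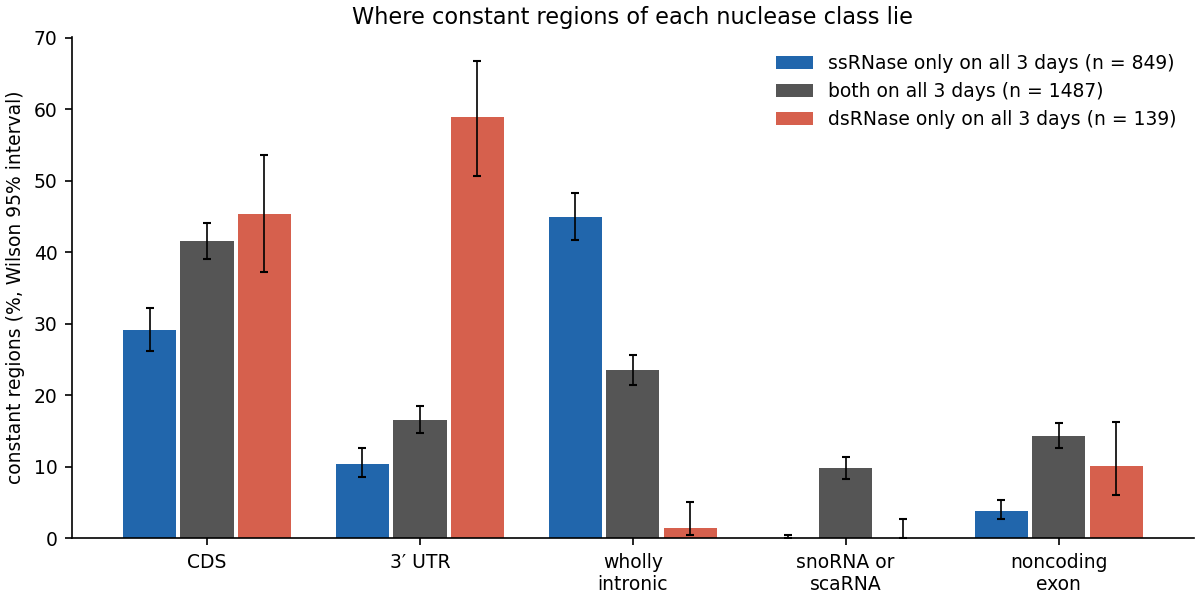
Share of constant regions that touch a CDS, touch a 3′ UTR, lie wholly in introns, lie on a snoRNA or scaRNA gene, or touch a noncoding exon (y axis, percent), for regions with ssRNase calls only, calls of both nucleases or dsRNase calls only on all 3 days. Bars start at 0 and error bars are Wilson 95% intervals; dsRNase-only regions lead on 3′ UTRs (59.0%) and ssRNase-only regions in introns (44.99%).

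Among the annotated RNA types examined, snoRNA genes had the highest share with a constant region. Of 291 merged regions on a snoRNA or scaRNA gene, 219 were constant (75.3%, where all merged regions gave 8.02%). By gene, 221 of 283 snoRNA genes with a replicated region held a constant region (78.1%, Wilson 95% interval 72.9 to 82.5), and 16 of 23 scaRNA genes did. Among genes with family symbols, 50 of 60 Snord genes and 29 of 34 Snora genes did so, and the intervals of the 2 families overlap (72.0% to 90.7% and 69.9% to 93.6%). For comparison, 31 of 77 miRNA genes, 29 of 95 lincRNA genes and 1826 of 7757 protein-coding genes with a replicated region on their exons held a constant region there (the latter 23.5%).

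The 219 regions on these genes were also the most fully supported. Their median number of call sets was 10, against 7 in the other 6310 constant regions, and 47 of them were named by all 12 call sets, against 106 of the others. Calls of both nucleases on all 3 days were present in 66.2% of them and in 21.3% of the others. The stretch shared by all days made up a median 67.9% of the region, against 50%. Of the 237 genes concerned, 201 lay wholly within their region. Their median score was 45.69 without DMSO, 44.31 after 2 days and 38.9 after 4 days of it. The other constant regions had medians of 23.8, 24.4 and 24.8, so that the gap between the groups narrowed at day 4.

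The highest score on the weakest day among all constant regions belonged to a region over the scaRNA gene Scarna17, with scores of 125.71, 196.01 and 150.45 at day 0, day 2 and day 4. Gas5, a noncoding host gene of many C/D snoRNAs, held 7 constant regions among its 9 replicated regions. The region with the highest percentile on its weakest day covered an intronic snoRNA and flanking exon sequence at chr1:161035094-161035643 and had scores of 101.64, 93.26 and 111.08. The region over Snord47 in the same gene had scores of 222.68, 83.99 and 86.16, and the one over Snord80 had 21.87, 30.21 and 15.41. Protection within this host therefore differed by region on every day. Gas5 and the Snhg genes, which are further snoRNA hosts, made up 11 genes with a replicated region, and all 11 held a constant region.

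Host genes that encode proteins showed the same neighbourhood. Taf1d, a subunit of the RNA polymerase I factor SL1, held 13 constant regions on exons among 23, and 5 of the 13 overlapped a snoRNA gene. Eif4a2, a helicase of translation initiation, held 13 among 20, with 4 on snoRNA genes. A 751-nt region of Eif4a2 at chr16:23111182-23111932 had scores of 59.3, 169.28 and 153.04. The opposite order was seen over Snora62 in the ribosomal protein gene Rpsa, where scores were 46.84, 32.57 and 10.8, and the protected length was 222, 178 and 11 nt. This was the most negative difference in score percentile among constant regions on exons, from 97.2 to 3.21.

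Noncoding transcripts held 3 of the 5 longest regions named by all 12 call sets, in Malat1, Neat1 and Mir17hg. Malat1, a nuclear RNA of speckles, had a 2719-nt region found in all 12 call sets, with scores of 138.63, 81.53 and 30.02. Its PPSs covered 2473 nt at day 0, 2446 nt at day 2 and 584 nt at day 4, so that less of the region was protected at day 4. Neat1, the scaffold of paraspeckles, had a 1748-nt region with scores of 147.24, 64.95 and 157.13 and covered lengths of 1675, 1281 and 1322 nt. Neat1 held 11 constant regions among 46. Kcnq1ot1, the antisense RNA of the imprinted Kcnq1 domain, held more constant regions on exons than any other gene, 37 among 134, spread over 48741 nt. None of the 37 was found in all 12 call sets, and their median number of call sets was 8.

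The primary transcript of the miR-17 to miR-92 cluster, Mir17hg, had fewer of its hairpins covered in full on later days. Its region at chr14:115043543-115044951 was found in all 12 call sets, and its scores were 316.92, 78.98 and 93.95. At day 0 a single PPS covered all 6 hairpins in full. At day 2 the hairpin of Mir18 was not covered (0.0%) and those of Mir17, Mir19a, Mir20a and Mir19b-1 were covered in full. At day 4, Mir17 was covered over 16.7% of its hairpin, Mir18 over 0.0%, Mir19a over 78.0%, Mir20a over 88.8%, Mir19b-1 over 100.0% and Mir92-1 over 97.5%. At day 4 the hairpins towards Mir92-1 were thus covered over more of their length than those towards Mir17, which was still covered in full at day 2. Depth at a hairpin is not given in the lists, so that an uncovered hairpin is not shown to be unprotected.

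Among other stable small RNAs, 5 genes of 6 with a replicated region held a constant region. The region on Rmrp, the RNA of RNase MRP, had scores of 11.94, 39.43 and 21.27. That on the scaRNA gene Scarna2 had 50.16, 78.83 and 35.57. The vault RNA gene Vaultrc5 had scores of 16.7, 11.85 and 64.48 and was found with dsRNase only on every day. No replicated region outside the ribosome-sized class was found on the 7SK RNA gene Rn7sk, on the Y RNA genes Rny1 and Rny3 or on the signal recognition particle RNA genes Rn7s1 and Rn7s2.

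In all, 2756 genes held a constant region, 2237 of them on exons and 519 only in introns. They were 29.8% of the 9262 genes with a replicated region and, for exons, 25.6% of 8723. Exons here include those of transcripts that retain an intron. A single exonic constant region was held by 1510 genes, 5 or more by 158 and 10 or more by 27. No gene on the same strand was overlapped by 525 regions. The marker genes fitted the label of the cells by their replicated regions: all 12 erythroid markers had one on exons. A constant region on exons was held by 7 of the 12, among them Tfrc, the transferrin receptor, and Slc25a37, the mitochondrial iron importer. Gata1, Slc4a1, Hba-a2, Hbb-bs and Hbb-bt held no constant region on exons. Of 10 markers of other cell types, only Ptprc had a replicated region on exons and only Tubb3 another one, in an intron, and neither was constant.

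The genes with the most constant regions on exons were, after Kcnq1ot1, Sfi1 (24 of 41 replicated regions), Ogt (19 of 31), Hnrnpu and Safb2 (15 of 48 and 15 of 34) and Atrx (14 of 51). Sfi1 encodes a centrin-binding protein of the centrosome. Of its 24 regions, 22 touched both an intron and an exon of an intron-retaining transcript, and 23 touched a CDS. Ogt encodes the transferase that adds GlcNAc to nuclear and cytoplasmic proteins, and 7 of its 19 regions were found in all 12 call sets, more than in the other genes named for their number of exonic regions. Hnrnpu and Safb2 encode nuclear matrix-associated RNA-binding proteins, and Atrx a chromatin remodeler. Ddx5, an RNA helicase, held 12 of 23. Ahnak2 also held 12, of 41, but the central 31 nt of each of the 12 occurred elsewhere in the genome, in up to 17 places, so that its reads cannot be placed with certainty. The central 31 nt was also repeated in 4 of the 12 regions of Ddx5, 3 of the 24 of Sfi1 and 1 of the 15 of Safb2. Among the host genes above, it was repeated in 4 of 13 for Taf1d and 3 of 13 for Eif4a2.

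In introns alone, Lrmda held 115 constant regions among 734 intronic regions, spread over 789127 nt. Cbfa2t3, which encodes the corepressor ETO2 of erythroid progenitors, held 59 among 157 within 58255 nt. Asap1, an Arf GTPase-activating protein, held 44 among 290. Runx1, a regulator of blood stem cells, held 44 among 235, and Zfpm1, the GATA1 cofactor FOG1, held 27 among 153. The central 31 nt of all these regions occurred only once in the genome. The densest of them was Cbfa2t3, where 37.6% of the intronic regions were constant. The shares of Lrmda, Asap1, Runx1 and Zfpm1 lay between 15.2% and 18.7%. For comparison, 7.23% of all merged regions assigned to the intron class were constant. These genes were picked for their number of constant regions, so their shares describe them only.

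The longest constant region of all lay in an intron of Pfkp, the platelet-type phosphofructokinase. It spanned 4999 nt at chr13:6607537-6612535 and was found in all 12 call sets. Its scores were 449.21, 206.88 and 112.91, while its number of PPSs went from 5 to 12 to 18. It thus held more PPSs, and a lower score in the highest of them, on each later day. An intronic region of 2523 nt in Golt1b, which encodes a Golgi transport protein, had scores of 316.36, 81.69 and 53.57. It held 3, 12 and 7 PPSs, which covered 2505, 2262 and 1191 nt. Intronic regions of Fbrsl1 (135.23, 111.1 and 116.25), Dph5 (115.99, 92.74 and 90.49) and Rps6kc1 (204.63, 160.84 and 102.75) were also among the 10 highest on their weakest day.

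Whether a gene qualified moved with its number of replicated regions on exons. Of protein-coding genes, 3.01% of those with 1 such region held a constant region there, 15.2% of those with 3 to 5 and 89.0% of those with 21 or more. Gene groups also differed in how many members held a constant region on exons, and their shares were not adjusted for the number of regions. Among 36 genes of SR proteins and hnRNPs with a replicated region, which regulate splicing, 28 did (77.8%, where all genes gave 25.6%). Hnrnph1 held 11 constant regions and Srsf5 held 8. Of cytosolic ribosomal protein genes 34 of 65 did (52.3%), with 4 regions each in Rps24 and Rpl3. Shares were also above the background for red cell membrane and skeleton genes (10 of 16), histone-modifying enzymes (23 of 46), mRNA decay regulators (15 of 27), heme synthesis enzymes (4 of 8), RNA helicases (18 of 45), glycolytic enzymes (6 of 14) and translation factors (19 of 51). Erythroid transcription factors counted 6 of 12 and progenitor regulators 5 of 9, among the latter Myc, with scores of 19.49, 28.46 and 10.97.

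MCM helicase and PCNA genes counted 3 of 8. Other groups lay near the background or under it. Proteasome subunits counted 8 of 33, iron genes 4 of 15, chaperones 13 of 42, E2 enzymes 6 of 30, replication-dependent histones 12 of 61, respiratory chain subunits 14 of 72 and cytoskeletal genes 2 of 11. Kinesins and centromere proteins counted 3 of 40, the lowest share, with 2 regions in Cenpf among its 36. Of 6 globin genes with a replicated region, Hba-a1 alone held a constant region. It spanned 493 nt at chr11:32283917-32284409, had scores of 16.12, 26.13 and 44.36, and shared 8 nt between all days. Hba-a1 and Hba-a2 each had 3 replicated regions on exons. Reads were allowed to align in several places, so that sites may not be assigned to a single alpha globin gene with certainty. No test over these lists was made, transcript abundance was not analysed here, and its part in which genes qualified was not tested.

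**Figure D4:**
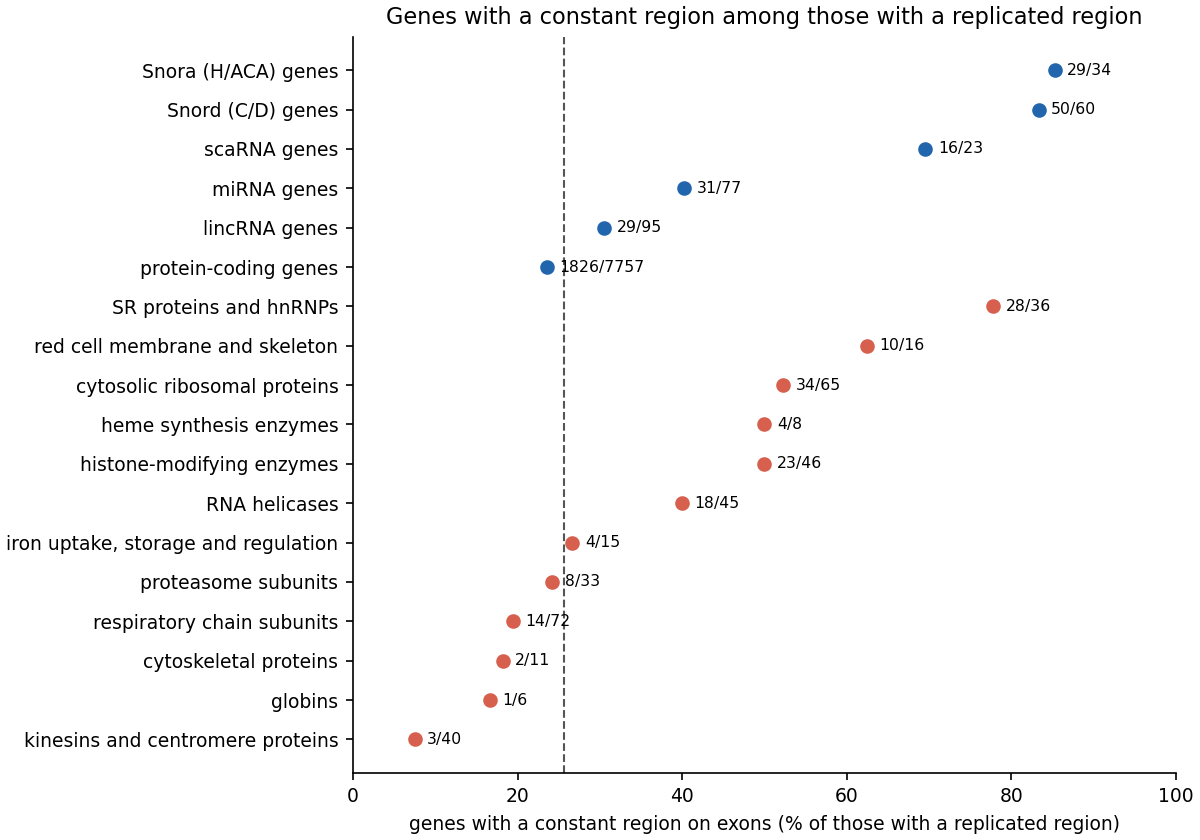
Percent of genes with a replicated region on exons that held a constant region there (x axis), by RNA type (blue) and gene list (red), with the counts beside each point. The dashed line is the share over all genes, 25.6%; snoRNA families and SR proteins and hnRNPs lie far to its right, kinesins and centromere proteins to its left.

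The criterion set no score threshold of its own, and the score's course over days varied although presence did not. The score was not independent of the criterion, since joining calls of both replicates sums their scores. The lowest score of a constant region was 10.8 on every day, where the lists start at 5.4. Median scores of the constant regions were 24.25, 24.81 and 25.2, and their median percentile among all replicated PPSs of the day was 75, 76.3 and 76.6. A region takes its highest-scoring PPS and is ranked among single PPSs, so that these percentiles are in part set by the definition. Across the 6529 regions, which are not independent replicates, the scores of a pair of days had a Spearman correlation of 0.323 to 0.329 and the covered lengths 0.483 to 0.516. From day 0 to day 4 the percentile moved by less than 10 points in 2176 regions (33.3%). It was higher at day 4 in 3342 regions (51.2%). Most regions thus shifted in rank by 10 points or more while staying present.

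Regions on red cell membrane, heme and iron genes mostly ranked higher at day 4, and those on ribosomal protein, proteasome and glycolytic genes lower. The percentile was higher in 23 of 27 regions on red cell membrane and skeleton genes (median difference 17.8 points) and in 7 of 8 on heme synthesis genes (26.3 points). It was higher in 11 of 15 on iron genes (18.5 points), where all constant regions had a median difference of 0.360 points. It was lower in 43 of 54 regions on ribosomal protein genes (median difference -5.34 points), in 8 of 9 on proteasome genes (-11.5 points) and in 8 of 11 on glycolytic genes (-16.4 points). Among regions with the same nuclease class on both days, it was higher in 15 of 17 for red cell membrane genes and in 7 of 8 for iron genes. It was higher in 2 of 3 for heme synthesis genes and in 5 of 26 for ribosomal protein genes. Lists outside these groups moved as well, with 17 of 26 regions higher on mRNA decay genes (16.7 points) and 8 of 14 lower on replication-dependent histones (-16.8 points). Erythroid transcription factors had 4 of 7 higher (0.430 points), and SR protein and hnRNP genes were balanced, with 49 of 108 higher. These are counts of regions in pooled lists, with no test. In such bulk samples, a change in the number of cells of a type and a change in RNA per cell cannot be told apart.

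Single regions give the size of these differences. Epb41, which encodes the cytoskeletal protein 4.1R of red cells, had a region at chr4:132071415-132071800 with scores of 25.83, 41.3 and 141.57. The 6 exonic constant regions of this gene lay between 14.95 and 33.75 at day 0, and that region had the highest score of them at day 4. Kel, the Kell blood group antigen, had a region at chr6:41704157-41704275 with scores of 19.62, 36.99 and 56.32. Ppox, which makes protoporphyrin IX, had a region at chr1:171280140-171280522 with scores of 24.08, 55.05 and 62.24. All 4 constant regions of Ppox scored higher at day 4 than at day 0. The same held for all 5 regions of Slc25a37, of which the highest at day 4 went from 25.14 to 27.81 to 73.72, although no position of it was covered on every day. On exons, Tfrc had 4 regions higher at day 4 and 1 lower.

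The most positive differences in percentile on exons were in Brf1, a subunit of the RNA polymerase III factor TFIIIB (scores 10.8, 21.2 and 51.29), Ambra1, a regulator of autophagy (10.8, 16.23 and 50.95), and Dnajc5, a cochaperone (10.8, 29.34 and 50.86). Each started at the lowest score that 2 joined calls can have. The most negative, beside Rpsa with Snora62, were in Hdac7, a class IIa histone deacetylase (36.24, 29.39 and 10.8), and Mpc1, a subunit of the mitochondrial pyruvate carrier (35.9, 17.1 and 10.8). These regions were picked for their extreme change, and the values describe them only.

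**Figure D5:**
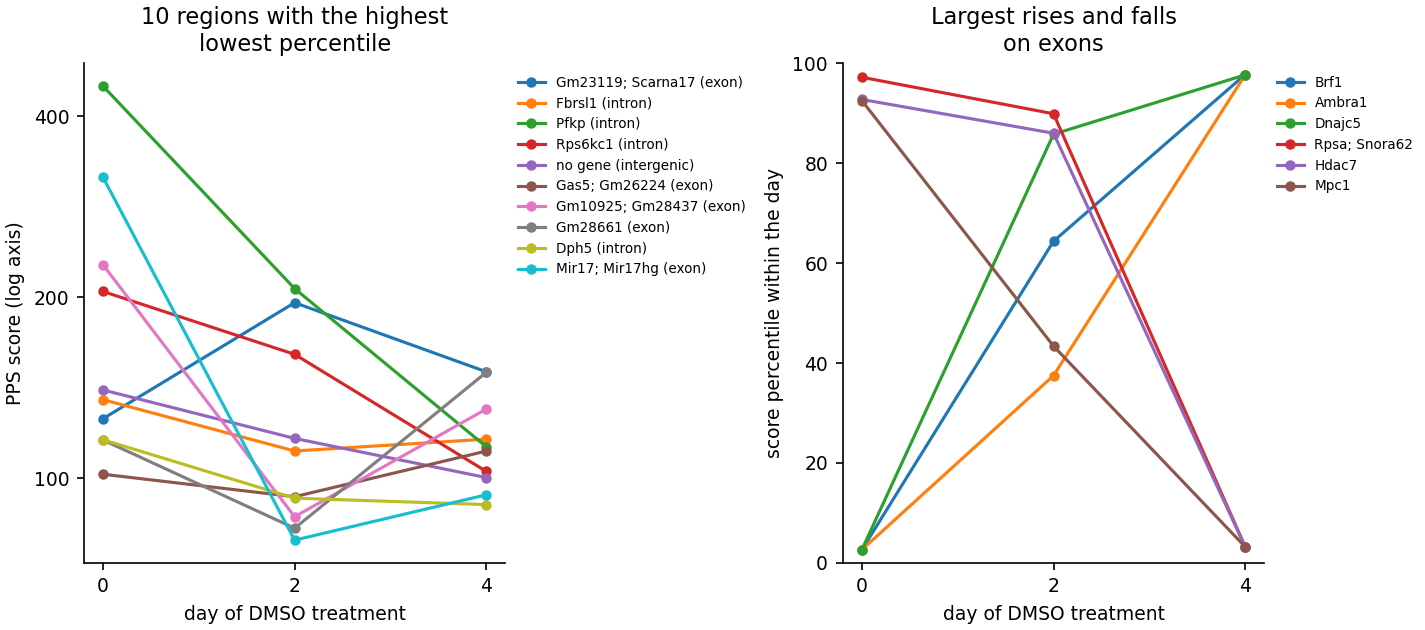
PPS score on a log axis by day of DMSO treatment for the 10 constant regions with the highest percentile on their weakest day (left), and score percentile within the day for the 3 most positive and 3 most negative differences on exons (right). On the left the lowest value is 78.98, in Mir17hg at day 2, and Pfkp goes from 449.21 to 112.91. On the right Brf1, Ambra1 and Dnajc5 go from 2.61 to values between 97.7 and 97.8.

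Some constant regions lie in sequence that is not unique, which limits what they can be assigned to. The central 31 nt occurred in more than 1 place of the genome in 16.8% of constant regions (Wilson 95% interval 15.9 to 17.7), 11.4% of regions of 2 days and 8.31% of regions of 1 day. The share was 53.8% for intergenic and 44.4% for antisense constant regions, and 9.60% for those on CDSs. On the Y chromosome 147 of 543 merged regions were constant (27.1%), on the X chromosome 420 of 3611 (11.6%). In 17 constant regions on chromosomes 1, 2, 4 and 10 the central 31 nt matched the mitochondrial genome, and 7 of these were found with dsRNase only on all 3 days. A region of this kind over the pseudogene Gm29216 had scores of 65.07, 44.0 and 54.29, the highest of all dsRNase-only regions on the weakest day. Regions over Gm28661 (115.87, 82.67 and 150.14) and over Gm10925, Gm28437 and Gm28438 (226.69, 86.38 and 130.46) were also of this kind. Both ranked among the 10 highest of all constant regions on their weakest day. Reads of mitochondrial RNA and of these nuclear copies cannot be told apart here. Without the regions whose central 31 nt was repeated, 5433 constant regions and 2403 genes remained, and the intron difference was 4.97 points.

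Strand balance at day 0 was uneven in the lists but not in the constant regions. Plus-strand PPSs made up 50.9%, 51.1% and 51.0% of PPSs inside constant regions and 58.1%, 50.3% and 47.9% outside. The excess at day 0 moved with ssRNase replicate 2, which gave 38742 calls on the plus and 19244 on the minus strand. In constant intronic PPSs the word GTGTG occurred 3.61 times per 1000 nt on the PPS strand, against 2.51 in other intronic PPSs. Soft-masked repeats made up 12.5% of the former and 6.90% of the latter. In 3′ UTRs the word TTTTTT occurred 1.78 times per 1000 nt inside and 0.949 times outside, and soft-masked repeats made up 8.004% and 7.57%.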

How the data were processed

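RNA-protein interaction sites were profiled by PIP-seq in MEL cells, in 24 libraries that form 12 groups of 2 replicates (3 days, 2 nucleases, footprinting or structure only). The study describes the replicates as biological. Per the authors' methods and processing notes, adapters were trimmed with cutadapt 1.2.1, reads were aligned to mm10 with TopHat2 2.0.10, duplicates were collapsed, and sites were called where footprinting exceeded structure-only coverage. The authors deposited 1 list of sites per day, pooled over its 8 libraries, with the joined call names and a score per site, an enrichment score that is summed over joined calls. Depth per library is not in these lists, and the mRNA-seq that the study made of the same samples was not used here.

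Sites of 20 to 40 nt were left out, and sites joined from calls of both replicates were kept and merged across days by 1 nt of overlap on a strand. A region's score on a day is the highest score of its sites. Its percentile is taken among the kept sites of that day. Classes came from GENCODE M21 on GRCm38 (21 chromosomes), with a site counted in every class it touched on its own strand. Intervals are Wilson (shares) or Newcombe (differences) at 95% and cover counting error only, and no p-value was computed because shares and scores come from sites pooled over a day's replicates and sites of a gene are not independent. Folding energies (ViennaRNA 2.7.2) were computed on the central 60 nt, and copies by the central 31-mer in the genome. Python 3.11.15, numpy 2.4.6, pandas 2.3.3, pysam 0.24.0, numba 0.67.0, samtools 1.23.1 and matplotlib 3.10.9 were used. Tested on simulated data, the merging recovered 500 of 500 planted constant regions among 13500 sites.

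The genes named in the text come from the 10 regions with the highest percentile on their weakest day, the 10 genes with most constant regions on exons and 5 with most in introns, up to 3 members of each of the 25 gene lists, the 5 longest regions of all 12 call sets, and the 3 most positive and 3 most negative percentile differences on exons. Among the first of these, an intergenic region on chromosome 18 has no gene to name. Predicted genes (Gm and Rik symbols) were counted but not named under the gene and difference rules. A gene that met these rules is not reported here. Genes outside these rules, such as the snoRNAs with printed sequences, snoRNA hosts, U2af2, Iars, Ripk3, Ppp4r3b, Sf3b6 and Gm29216, were chosen after their values were seen. The members and lists were chosen with earlier results of these data known. Alternatives varied the overlap, length class, score threshold, list size, replicate and nuclease support, class assignment, gene weight and each replicate.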

Additional observations from a re-analysis of the deposited data

Results flagged for a closer look

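Support by the nucleases went in opposite directions between day 0 and day 4. Each replicate of day 4 was set against each of day 0, which gives 4 differences per nuclease. The number of constant regions with a call of an ssRNase replicate differed by a mean of -278.5 (between -420 and -137). For dsRNase replicates it differed by a mean of 774.0 (between 258 and 1290). Every ssRNase pair lay below 0 and every dsRNase pair above it, and the difference between the nucleases was not tested. The extremes of each range are the differences between samples of the same replicate number. The number of calls in the lists moved the same way, from 34589 and 41265 at day 0 to 68632 and 52174 at day 4 for dsRNase and from 63917 and 57986 to 55143 and 54229 for ssRNase, and its part in the result was not tested.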

How the results depend on the processing

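Of the 16 alternatives for the number of constant regions (6529) and for the number of genes (2756), 13 each stayed within 1.5 times. The exceptions were calls of both replicates with dsRNase (606 regions, 632 genes), calls of both with ssRNase (3852 regions; 1698 genes) and sites above the day's median score (3124 regions, 1629 genes). Leaving out 1 replicate gave 7753 to 8662 regions and 3104 to 3301 genes. The CDS difference (-1.79 points) was -9.80 with dsRNase, -0.897 with ssRNase, -3.38 with both replicates of the same nuclease, -6.21 with each gene given the same weight, -2.64 with equal list sizes and -5.03 above the median score. It was reversed without sites of 200 nt or more (1.07), with central 31-mers found once (0.884) and without day 0 replicate 1 (0.164), day 2 replicate 1 (2.81), day 2 replicate 2 (1.35) or day 4 replicate 2 (0.233). Over all left-out replicates it ranged from -0.678 to 2.81. The intron difference (5.07 points) was reversed with 1 class per site (-2.60), where exons come first by construction, and with dsRNase (-0.925). It was 2.61 with ssRNase, 5.98 with the same nuclease, 13.9 with equal gene weight, 6.66 above the median score and 1.30 to 4.87 with a replicate left out, lowest without day 2 replicate 1 (1.30) and day 2 replicate 2 (1.91). The share of calls of both nucleases (51.3%) was 45.97% with the same nuclease, 48.96% without sites of 200 nt or more, 61.2% above the median score, 52.2% with central 31-mers found once and 47.1% to 48.1% with a replicate left out. Against the other sites (44.3%), the gap was smaller above the median score (61.2% against 59.4%) and wider with a replicate left out (47.1% against 30.9% without day 2 replicate 1). The 31-mer setting was chosen after seeing the data. Where no cause is given, the cause was not tested. No paired analysis was possible because these results are counts and shares over sites joined from both replicates of a day, and come from no test. Depth at a region is not given in the lists, so that absence on a day and a lack of reads cannot be told apart.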

Other observations

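Sites of ribosome-footprint size, left out of the regions described, were rarely held when merged among themselves. The 4851 replicated sites of 20 to 40 nt merged among themselves into 4751 regions, of which 3 were present on all 3 days (0.0631%). In 62 constant regions, another constant region overlapped on the opposite strand.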
